A study of Homo sapiens with 14 samples.

Results

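The RNAs described here are 34 long noncoding RNAs (lncRNAs), taken by name from the 36555 gene rows of a deposited count table. They comprise the 27 rows named SNHG (small nucleolar RNA host gene) followed by a number, together with GAS5, ZFAS1, DANCR, NEAT1, MALAT1, EPB41L4A-AS1 and NORAD. Of these, 32 had enough counts to be tested, and SNHG18 and SNHG31 did not. The cells were HT-29, an established line from a human colorectal carcinoma. The study asked how the ferroptosis inhibitors ferrostatin-1 and liproxstatin-1 act on cells that undergo apoptosis with tumour necrosis factor (TNF). Poly(A) RNA was sequenced from 6 groups of HT-29 cells: 3 control libraries in 0.1% DMSO, 2 with ferrostatin-1, 2 with liproxstatin-1, 2 with TNF, 3 with TNF + ferrostatin-1 and 2 with TNF + liproxstatin-1. The inhibitors were given at 20 uM and TNF at 100 ug/ml as labelled, for 72 h. All groups are the same line, and the design text calls the replicates technical, so p-values measure only the spread between these libraries. Members are compared in CPM (read counts scaled to library size) with edgeR's quasi-likelihood test over all 22179 genes that passed the filter, and a member is called when its Benjamini-Hochberg adjusted p is under 0.05.

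Small nucleolar RNAs (snoRNAs) guide the chemical modification of ribosomal RNA, and most human snoRNAs are cut from introns of a host transcript. In host genes without a protein product the spliced exons are left as an lncRNA. Several such RNAs open with a pyrimidine-rich start (a 5′ terminal oligopyrimidine tract, as on ribosomal protein mRNAs) and are degraded in the cytoplasm by nonsense-mediated decay when they are translated. NEAT1, MALAT1 and NORAD are abundant for other reasons. NEAT1 builds the nuclear bodies called paraspeckles. MALAT1 sits in nuclear speckles and ends in a triple helix in place of a regular poly(A) tail, and NORAD is a cytoplasmic RNA that binds PUMILIO proteins. Poly(A) selection measures the spliced host RNA and not the snoRNA. Here, 54 snoRNA rows lay within the span of 23 members, and each had a median under 1 CPM, the highest being 0.786 CPM, so nothing is said here of the snoRNAs themselves.

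The starts of 9 members are shown because the host RNAs are known for their pyrimidine-rich first bases. Each window runs from 20 bases before to 30 bases from the start that RefSeq gives the gene (GRCh38.p14). Capitals mark an unbroken run of at least 6 C or T bases that opens with a C within 10 bases of that start, on the transcribed strand. The first 4 are host RNAs called lower with TNF that hold such a run.
SNHG32 (chr6:31834896-31834945, plus strand): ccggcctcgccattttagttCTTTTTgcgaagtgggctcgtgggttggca
SNHG12 (chr1:28581844-28581893, minus strand): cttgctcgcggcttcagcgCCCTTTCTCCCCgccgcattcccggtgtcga
SNHG16 (chr17:76557744-76557793, plus strand): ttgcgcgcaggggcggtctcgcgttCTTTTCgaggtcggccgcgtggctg
SNHG8 (chr4:118278742-118278791, plus strand): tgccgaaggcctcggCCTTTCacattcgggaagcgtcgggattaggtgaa
The next 3 are host RNAs called lower with TNF in whose window no run met this rule.
ZFAS1 (chr20:49278622-49278671, plus strand): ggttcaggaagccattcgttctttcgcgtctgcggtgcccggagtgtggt
SNHG1 (chr11:62855856-62855905, minus strand): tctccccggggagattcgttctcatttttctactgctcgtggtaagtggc
GAS5 (chr1:173869016-173869065, minus strand): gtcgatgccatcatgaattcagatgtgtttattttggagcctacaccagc
The last pair is NORAD, not called in any of the 12 comparisons, and SNHG30, called higher with TNF.
NORAD (chr20:36050931-36050980, minus strand): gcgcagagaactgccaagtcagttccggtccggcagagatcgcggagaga
SNHG30 (chr17:35568094-35568143, plus strand): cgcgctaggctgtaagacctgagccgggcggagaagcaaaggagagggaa
RefSeq promoters were matched for 29 members. A run was found in 12 of the 29 (41.4%) and in 20.1% of the 35116 promoters of the table. Among matched members called lower in at least 1 TNF comparison it was found in 6 of 12 (50%), and among the other matched members in 6 of 17 (35.3%), MALAT1 and SNHG4 included. The untested SNHG18 and SNHG31 are 2 of these 6, and among the other members that were tested a run was found in 4 of 15 (26.7%). The E-box CACGTG, which reads the same on both strands, was found in the 300-base promoters of 3 members (10.3%) and in 7.26% of all promoters. These matches describe the letters in the windows only. The RefSeq start lay within 50 bases of the deposited start for 15 of the 29 members. In the printed windows it lay up to 464 bases from it (ZFAS1), with 308 bases for SNHG32, 163 for GAS5 and 68 for SNHG1. A window may therefore not open the transcript that was counted, and a window without a run does not show that the RNA lacks one. The counts of runs above carry the same limit.

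The libraries held 59913850 to 75838597 counts, and the members took 0.192% to 0.305% of them. A pair of libraries stood apart and touch many of the results below. Log2 levels of all genes correlated at 0.9805 between the 2 TNF libraries, against 0.992 to 0.996 within the other groups, and MALAT1 was 4.13 times lower in TNF library 1 than in TNF library 3. Control library 2 was the lowest of the 3 control libraries for 18 of the 26 tested members with a mean count of at least 50. Its median log2 difference to the other controls was -0.28. Such a count was not particular to it: TNF + ferrostatin-1 library 1 was the lowest of 3 for 18, with a median of -0.157. TNF + liproxstatin-1 library 2 was the lower of 2 for 23, also at -0.157, and liproxstatin-1 library 1 for 22, at -0.06. KRT81, a keratin gene, was at 43.7 to 57.0 CPM in 6 libraries, at 13.54 and 13.99 CPM in 2 and at 1.05 to 1.85 CPM in 6, and this split ran through the ferrostatin-1, liproxstatin-1 and TNF + liproxstatin-1 groups. Its part in the members' levels was not tested. Of 12 colon epithelial markers, EPCAM, KRT8, KRT18, KRT19, KRT20, VIL1, CDH1 and LGALS4 were at 96.1 CPM or more in every library. CEACAM5 (2.42 to 9.58 CPM) and CDX2 (4.44 to 12.2 CPM) were low, and CDX1 (at most 0.397 CPM) and GPA33 (at most 1.94 CPM) were near 0. The 6 leukocyte markers summed to 786.5 to 873.6 CPM with TNF + liproxstatin-1 and to 844.6 to 1164 CPM in the other groups. Nearly all of this was LYZ (761.7 to 1136 CPM), and CD68 (7.10 to 21.1 CPM) and CD14 (8.29 to 12.6 CPM) were in every library, while PTPRC, the defining marker of leukocytes, was at 0 in 13 of 14 libraries and FCGR3A in 12. The 4 endothelial markers summed to 0.905 to 46.0 CPM, with ranges that overlapped between the groups with and without TNF. The summed level of 8 fibroblast markers, 8 of which were above 0 in some library, was 25.1 to 46.3 CPM in the TNF group and 2.53 to 16.7 CPM in the others. The part of these markers in the TNF comparisons was not tested.

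By the deposited FPKM values, which are per length, NORAD ranked first among members in control cells, at 124 ± 9.44 FPKM (SD, n = 3). SNHG32 (52.7 ± 10.0 FPKM), GAS5 (46.4 ± 10.2 FPKM), SNHG1 (43.0 ± 7.05 FPKM) and SNHG29 (33.6 ± 5.79 FPKM) followed. SNHG32 and GAS5, and GAS5 and SNHG1, differed by less than the SD of either. MALAT1 (23.4 ± 0.113 FPKM), SNHG6 (22.9 ± 1.76 FPKM) and NEAT1 (22.8 ± 5.54 FPKM) came next and lay within 1 SD of NEAT1's mean, so their order is not resolved. These FPKM values rest on 1 length per gene, which can differ from the transcript that the cells make. Counts and FPKM together implied 5597 bases for NORAD, 1867 for SNHG32, 5022 for GAS5, 4121 for SNHG1 and 7444 for SNHG29. For NORAD and SNHG1 this exceeded the deposited span (5401 and 3970 bases), so these lengths need not be those of the spliced RNAs. The ranks hold for these lengths only and do not settle which RNA was most abundant. SNHG18 had counts in 1 library (6 counts in control library 1) and SNHG31 at most 8 counts in any library.

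Across the 6 groups, 17 of the 32 tested members differed, against 26.1% of all genes tested. Of these 17, 14 were called lower in at least 1 of the 3 TNF comparisons, 13 of them snoRNA hosts and the other NEAT1, and 3 were called higher. TNF against control gave 5 members lower, where 6.44% of all genes were lower, and 1 higher, where 8.24% of all genes were higher. TNF + ferrostatin-1 against ferrostatin-1 gave 12 lower (9.36% of all genes) and 3 higher (8.76% of all genes). TNF + liproxstatin-1 against liproxstatin-1 gave 14 lower (7.03% of all genes) and 2 higher (7.57% of all genes). The median log2 fold change over the 32 members was -0.34, -0.49 and -0.60 in the 3 comparisons, beside -0.02, 0.02 and 0.06 over all genes tested. In bulk RNA a lower level can come from fewer cells that make the RNA or from less RNA per cell, and these cannot be told apart.

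**Figure D1:**
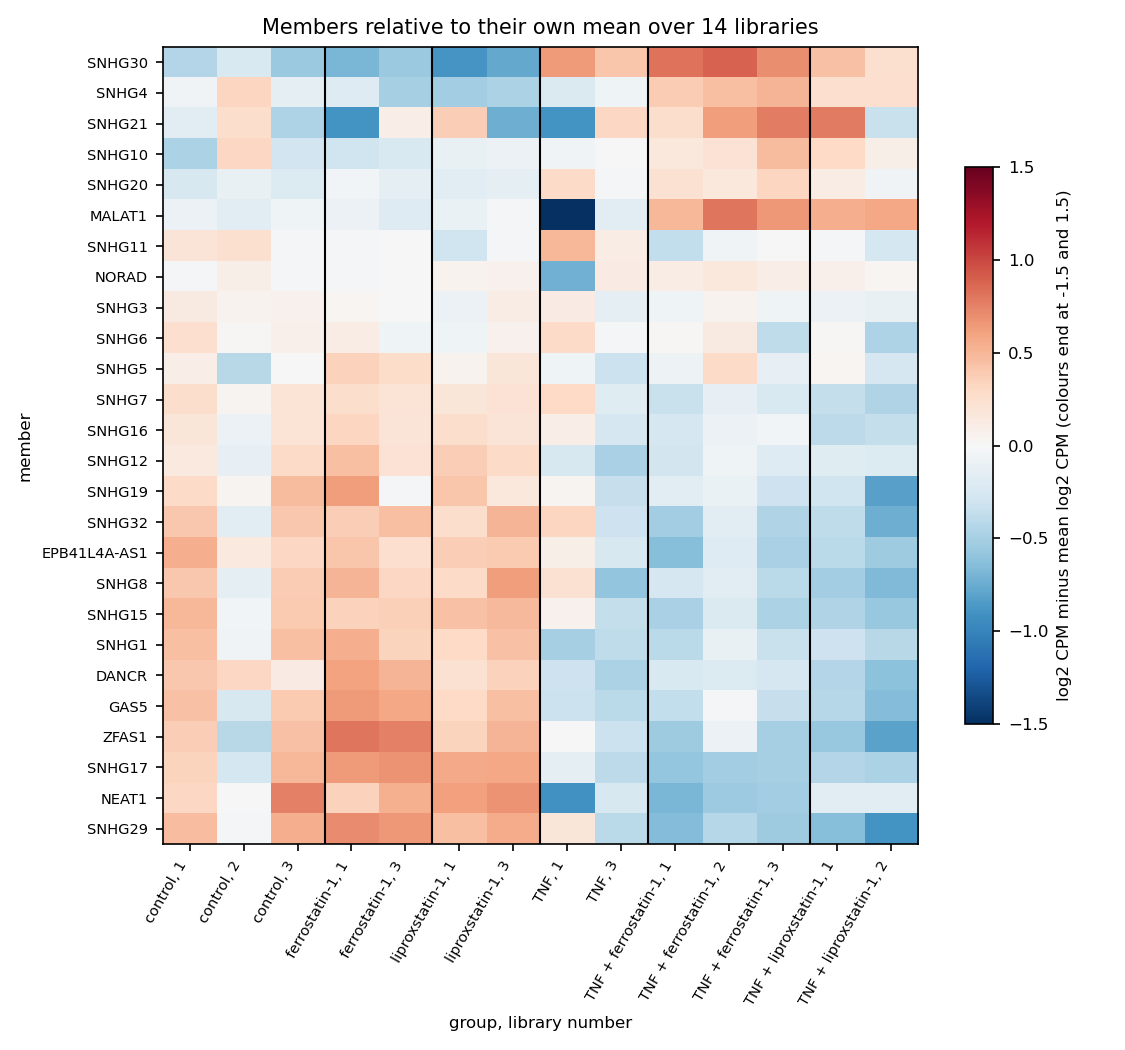
Level of each of the 26 tested members with a mean count of at least 50 (rows) in each library (columns, grouped by treatment), as log2 CPM minus the member's mean over the 14 libraries. Values run from -2.21 to 0.88, with colours ending at -1.5 and 1.5. Most host RNAs below the middle are red in the libraries without TNF other than control library 2, which is pale or blue, and blue in the libraries with TNF and an inhibitor, and MALAT1 in TNF library 1 lies beyond the colour scale.

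The 3 TNF comparisons share no library. DANCR, GAS5, NEAT1, SNHG1 and SNHG12 were lower in all 3, which is all 5 of the members lower with TNF alone. Those lower in both of the others numbered 12, which is 100% of the 12 lower beside ferrostatin-1 and 85.7% of the 14 lower beside liproxstatin-1, where SNHG8 and SNHG16 were called in addition. Over all genes, 39.4% of those lower with TNF alone were also lower beside ferrostatin-1 and 30.7% beside liproxstatin-1, while 61.1% of those lower beside ferrostatin-1 and 81.3% of those lower beside liproxstatin-1 were lower in both. SNHG30 was higher in all 3, and SNHG4 in the 2 with an inhibitor. The sign of the log2 fold change was negative in all 3 for 19 of the 32 members and positive in all 3 for SNHG10, SNHG20 and SNHG30. Over all genes tested it was negative in all 3 for 24% and positive in all 3 for 26.2%.

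**Figure D2:**
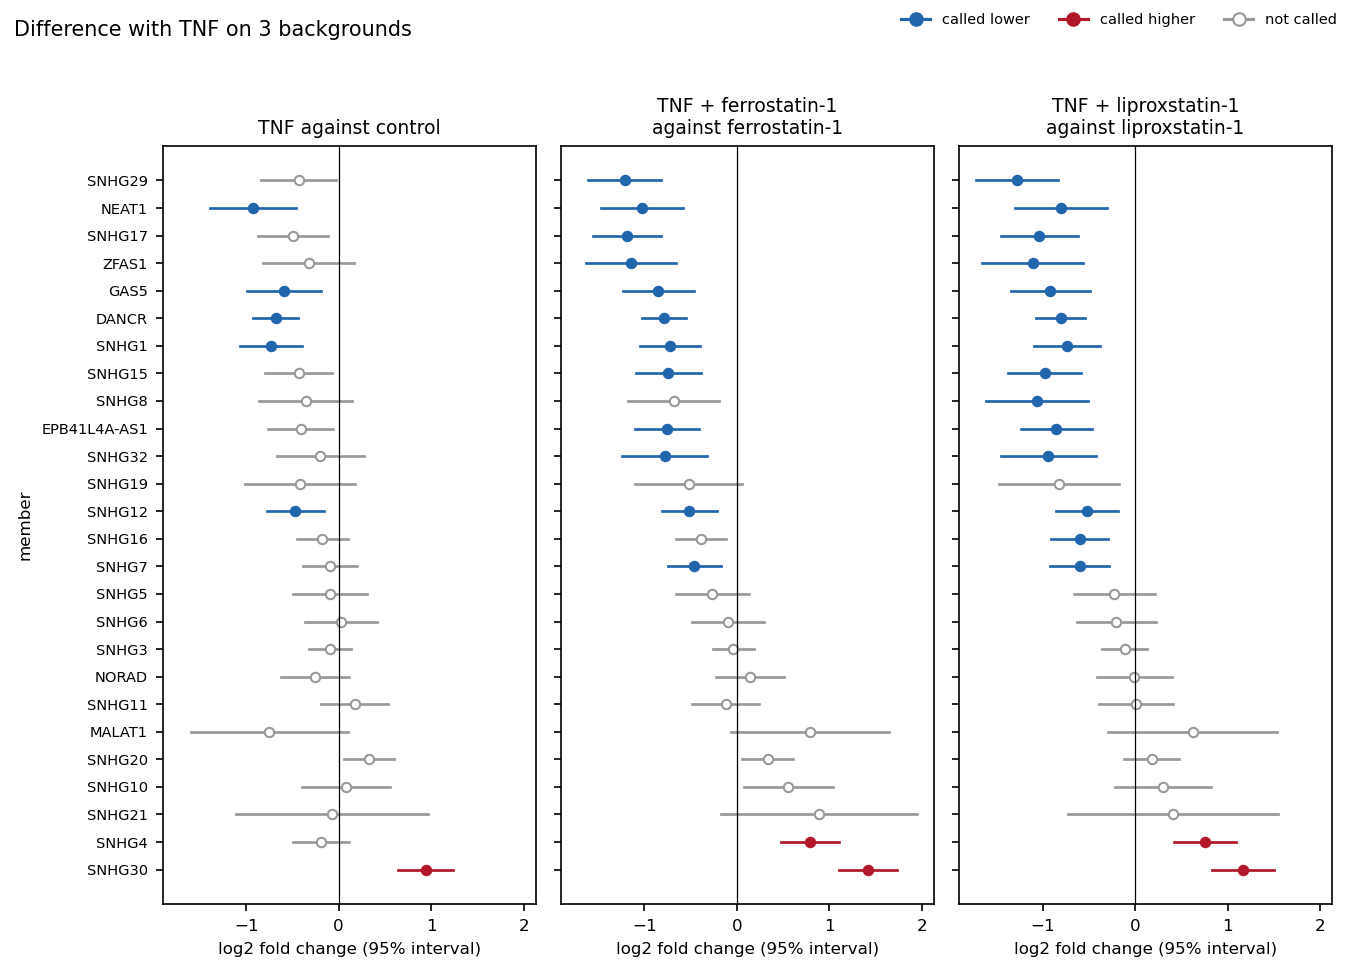
Log2 fold change with its 95% interval (x axis) for the 26 tested members with a mean count of at least 50 (y axis), in 3 comparisons of cells with and without TNF that share no library. Filled blue points are called lower, filled red points called higher and open grey points not called. SNHG29, SNHG17 and ZFAS1 lie near or beyond -1 beside both inhibitors, and the interval of MALAT1 is wide in each comparison.

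GAS5 (growth arrest-specific 5), a host of box C/D snoRNAs whose RNA accumulates in growth-arrested cells and can bind the glucocorticoid receptor, lies at chr1:173858559-173868882, minus strand. GAS5 was at 275, 172 and 267 CPM in the control libraries, 316 and 303 with ferrostatin-1 and 250.3 and 278 with liproxstatin-1. With TNF, GAS5 was at 162 and 154 CPM for TNF alone, 157, 199 and 159 with TNF + ferrostatin-1 and 150.4 and 129.5 with TNF + liproxstatin-1. Here and below, control and TNF + ferrostatin-1 values are for libraries 1, 2 and 3, TNF + liproxstatin-1 values for libraries 1 and 2, and the others for libraries 1 and 3. Control library 2 was lower than every other library without TNF, and no library with TNF reached the level of the other controls. GAS5 fell with TNF by 1.51-fold against control (log2 fold change -0.59, SE 0.18, adjusted p = 0.0482). It fell by 1.80-fold beside ferrostatin-1 (log2 fold change -0.85, SE 0.18, adjusted p = 0.00594) and by 1.89-fold beside liproxstatin-1 (log2 fold change -0.92, SE 0.20, adjusted p = 0.00937). The call against control was kept in 6 of 22 alternative analyses.

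SNHG1, the host of a cluster that includes SNORD22 and SNORD25 to SNORD28, was at 200.1, 141 and 200.4 CPM in the control libraries, 214 and 185 with ferrostatin-1 and 181 and 199 with liproxstatin-1. With TNF, SNHG1 was at 104 and 113 CPM for TNF alone, 111, 136 and 117 with TNF + ferrostatin-1 and 119 and 109.6 with TNF + liproxstatin-1. Every library with TNF was below every library without it. SNHG1 fell by close amounts in the 3 comparisons, with log2 fold changes of -0.73 (SE 0.15, adjusted p = 0.00858), -0.72 (SE 0.15, adjusted p = 0.00554) and -0.73 (SE 0.16, adjusted p = 0.0117) for TNF alone, beside ferrostatin-1 and beside liproxstatin-1. DANCR, an lncRNA known for holding back differentiation of progenitor cells and the host of SNORA26, was at 47.4, 44.3 and 39.1 CPM in the control libraries, 54.2 and 51.1 with ferrostatin-1 and 41.8 and 45.4 with liproxstatin-1. With TNF, DANCR was at 28.8 and 25.6 CPM for TNF alone, 30.5, 31.0 and 30.0 with TNF + ferrostatin-1 and 26.5 and 23.4 with TNF + liproxstatin-1. All 7 libraries with TNF were below all 7 without it here too. DANCR fell by 1.60-fold against control (log2 fold change -0.68, SE 0.11, adjusted p = 0.00204). It fell by 1.73-fold beside ferrostatin-1 (log2 fold change -0.79, SE 0.11, adjusted p = 0.000474) and by 1.75-fold beside liproxstatin-1 (log2 fold change -0.81, SE 0.12, adjusted p = 0.00126). It had the smallest adjusted p of the members called lower over the 6 groups (0.000151). SNHG12, the host of SNORA44 and SNORA61 among others, was at 30.4, 25.3 and 33.8 CPM in the control libraries, 37.7 and 31.9 with ferrostatin-1 and 35.7 and 33.5 with liproxstatin-1. With TNF, SNHG12 was at 23.4 and 19.7 CPM for TNF alone, 22.8, 26.4 and 24.1 with TNF + ferrostatin-1 and 24.4 and 23.9 with TNF + liproxstatin-1. TNF + ferrostatin-1 library 2 lay above control library 2 for this gene, and the other TNF libraries lay below all controls. SNHG12 fell by 1.38-fold with TNF alone (log2 fold change -0.47, SE 0.14, adjusted p = 0.0437), a call kept in 6 of 22 alternatives. Its log2 fold change was -0.51 (SE 0.14, adjusted p = 0.022) beside ferrostatin-1 and -0.52 (SE 0.15, adjusted p = 0.0394) beside liproxstatin-1, where that call was kept in 10 of 21.

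**Figure D3:**
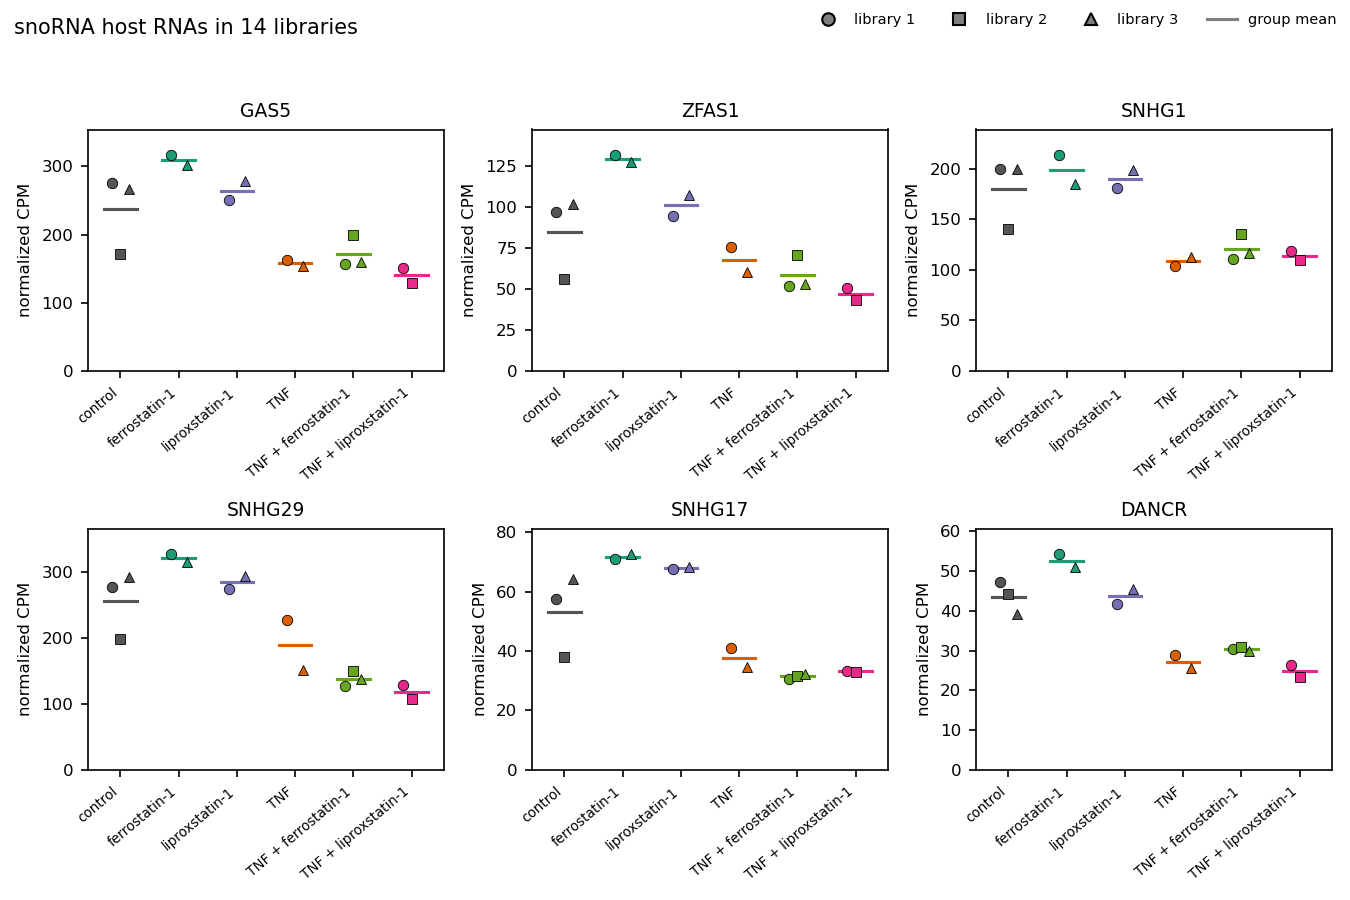
Normalized CPM (y axes, from 0) of 6 host RNAs in each library, by group (x axes); marker shape gives the library number and the bar the group mean. In each panel every library with an inhibitor alone is above every library of the same inhibitor with TNF, whereas control library 2 lies below TNF library 1 for ZFAS1, SNHG29 and SNHG17.

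A further group of hosts was called lower by edgeR beside each inhibitor but not with TNF alone, although DESeq2 also called SNHG17 (adjusted p = 0.0314) and SNHG15 (adjusted p = 0.0483) lower with TNF alone. SNHG29, antisense to LRRC75A and the host of SNORD49A and SNORD49B, was at 276, 197 and 292 CPM in the control libraries, 326 and 315 with ferrostatin-1 and 274 and 294 with liproxstatin-1. With TNF, SNHG29 was at 227 and 151 CPM for TNF alone, 128, 149 and 138 with TNF + ferrostatin-1 and 128 and 107 with TNF + liproxstatin-1. TNF library 1 lay above control library 2, while the TNF libraries with an inhibitor were all below all libraries without TNF. SNHG29 fell by 2.32-fold beside ferrostatin-1 (log2 fold change -1.21, SE 0.18, adjusted p = 0.000812) and by 2.42-fold beside liproxstatin-1 (log2 fold change -1.27, SE 0.20, adjusted p = 0.0019). These were the largest falls among called members in the analysis of all libraries. Its log2 difference against control was -0.43 (SE 0.18, adjusted p = 0.137). ZFAS1, which starts beside ZNFX1 on the opposite strand and holds SNORD12, was at 97.0, 56.1 and 102 CPM in the control libraries, 131 and 127 with ferrostatin-1 and 94.4 and 107 with liproxstatin-1. With TNF, ZFAS1 was at 75.5 and 60.1 CPM for TNF alone, 51.9, 70.6 and 53.2 with TNF + ferrostatin-1 and 50.5 and 43.1 with TNF + liproxstatin-1. Control library 2 had less ZFAS1 than either TNF library. ZFAS1 fell by 2.21-fold (log2 fold change -1.14, SE 0.22, adjusted p = 0.00402) and 2.15-fold (log2 fold change -1.11, SE 0.25, adjusted p = 0.012) beside ferrostatin-1 and liproxstatin-1. Its log2 difference against control was -0.32 (SE 0.23, adjusted p = 0.372). SNHG17, the host of the SNORA71 family, was at 57.5, 38.0 and 64.1 CPM in the control libraries, 71.1 and 72.5 with ferrostatin-1 and 67.5 and 68.2 with liproxstatin-1. With TNF, SNHG17 was at 41.0 and 34.6 CPM for TNF alone, 30.5, 31.7 and 32.2 with TNF + ferrostatin-1 and 33.4 and 32.8 with TNF + liproxstatin-1. The 7 libraries without TNF were above the 7 with it but for control library 2, which lay below TNF library 1. The log2 fold change of SNHG17 was -1.19 (SE 0.17, adjusted p = 0.000603) beside ferrostatin-1 and -1.03 (SE 0.19, adjusted p = 0.004) beside liproxstatin-1. The difference against control was -0.49 (SE 0.17, adjusted p = 0.0784).

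SNHG15, the host of SNORA9, was at 68.3, 47.1 and 63.3 CPM in the control libraries, 61.5 and 62.1 with ferrostatin-1 and 65.8 and 67.6 with liproxstatin-1. With TNF, SNHG15 was at 50.6 and 37.8 CPM for TNF alone, 34.6, 41.5 and 34.9 with TNF + ferrostatin-1 and 35.3 and 32.5 with TNF + liproxstatin-1. Control library 2 lay below TNF library 1. SNHG15 was lower by log2 fold changes of -0.74 (SE 0.16, adjusted p = 0.00777) beside ferrostatin-1 and -0.98 (SE 0.18, adjusted p = 0.00409) beside liproxstatin-1. The value was -0.43 (SE 0.16, adjusted p = 0.0999) against control. SNHG32, the host of SNORD48 and SNORD52, was at 113, 75.5 and 113 CPM in the control libraries, 109.7 and 116 with ferrostatin-1 and 103 and 122 with liproxstatin-1. With TNF, SNHG32 was at 107 and 68.7 CPM for TNF alone, 59.6, 75.6 and 62.4 with TNF + ferrostatin-1 and 65.7 and 51.5 with TNF + liproxstatin-1. TNF library 1 was in the range of the controls and TNF library 3 below it. SNHG32 was lower by log2 fold changes of -0.78 (SE 0.21, adjusted p = 0.0237) beside ferrostatin-1 and -0.94 (SE 0.24, adjusted p = 0.0203) beside liproxstatin-1. The value was -0.20 (SE 0.21, adjusted p = 0.592) against control. EPB41L4A-AS1, the host of SNORA13 on the strand opposite EPB41L4A, was at 38.8, 29.4 and 32.9 CPM in the control libraries, 35.4 and 31.5 with ferrostatin-1 and 34.4 and 34.8 with liproxstatin-1. With TNF, EPB41L4A-AS1 was at 28.2 and 22.5 CPM for TNF alone, 17.1, 23.3 and 19.0 with TNF + ferrostatin-1 and 20.0 and 18.3 with TNF + liproxstatin-1. Both TNF libraries were below the 3 controls, by little for library 1. Its log2 fold changes were -0.76 (SE 0.16, adjusted p = 0.00607) beside ferrostatin-1 and -0.85 (SE 0.18, adjusted p = 0.00768) beside liproxstatin-1. Its difference against control was -0.41 (SE 0.16, adjusted p = 0.11).

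SNHG7, the host of SNORA17A and SNORA17B, was at 61.1, 52.7 and 58.9 CPM in the control libraries, 61.5 and 58.7 with ferrostatin-1 and 57.9 and 59.2 with liproxstatin-1. With TNF, SNHG7 was at 62.8 and 44.9 CPM for TNF alone, 40.6, 47.1 and 43.6 with TNF + ferrostatin-1 and 39.9 and 37.4 with TNF + liproxstatin-1. TNF library 1 was the highest of all 14 libraries, and each TNF library with an inhibitor was below each library without TNF. SNHG7 was lower by log2 fold changes of -0.46 (SE 0.13, adjusted p = 0.0309) beside ferrostatin-1 and -0.60 (SE 0.15, adjusted p = 0.0176) beside liproxstatin-1. The value was -0.10 (SE 0.13, adjusted p = 0.683) for TNF alone. SNHG16, the host of SNORD1A to SNORD1C, was at 55.5, 46.3 and 56.8 CPM in the control libraries, 61.6 and 56.4 with ferrostatin-1 and 58.9 and 56.4 with liproxstatin-1. With TNF, SNHG16 was at 52.5 and 41.2 CPM for TNF alone, 41.2, 46.3 and 47.9 with TNF + ferrostatin-1 and 37.6 and 38.5 with TNF + liproxstatin-1. TNF library 1 lay above control library 2. SNHG8, the host of SNORA24, was at 29.8, 20.5 and 29.4 CPM in the control libraries, 31.9 and 27.9 with ferrostatin-1 and 27.5 and 34.9 with liproxstatin-1. With TNF, SNHG8 was at 26.4 and 15.0 CPM for TNF alone, 18.9, 20.0 and 17.0 with TNF + ferrostatin-1 and 15.7 and 14.2 with TNF + liproxstatin-1. Here too TNF library 1 lay above control library 2. Both were called lower beside liproxstatin-1, with log2 fold changes of -0.60 (SE 0.14, adjusted p = 0.0141) and -1.06 (SE 0.25, adjusted p = 0.0153). Beside ferrostatin-1 both just missed the threshold, at -0.39 (SE 0.13, adjusted p = 0.0527) and -0.68 (SE 0.22, adjusted p = 0.0552). The difference of the TNF effect between the inhibitors was called for neither.

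The counts against control turned on the 2 libraries that stood apart. Control library 2 was set apart by the members' own low levels in it. Leaving it out therefore deepens the falls of those members against control. TNF library 1 was the higher of the 2 TNF libraries for 19 of the 26 tested members with a mean count of at least 50. Leaving it out lowers the TNF level of those members too. The counts below, and which members they hold, are therefore not independent support for the falls. Without control library 2, 10 of 32 members (31.2%) were called, where 15.5% of all genes were, and SNHG29, ZFAS1, SNHG17 and SNHG15 joined the lower ones. Without TNF library 1 and control library 2 together, an alternative chosen after seeing the data, 15 members (46.9%) were called, where 16.1% of all genes were: SNHG30 higher and 14 lower, and the lower ones are the same 14 as beside liproxstatin-1. In that analysis the log2 value of SNHG29 was -0.92 (SE 0.12, adjusted p = 0.000239), of ZFAS1 -0.73 (SE 0.17, adjusted p = 0.0105) and of GAS5 -0.83 (SE 0.14, adjusted p = 0.00177). The TNF group then holds 1 library, which is assumed to vary like the other groups. When only the control and TNF libraries entered the fit, 0 members were called by edgeR and 5 had an unadjusted p under 0.05.

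SNHG30, the host of SNORD7, which lies at chr17:35568076-35574843, plus strand, was the member with the smallest adjusted p over the 6 groups (2.53e-05). It was at 8.34, 9.66 and 7.68 CPM in the control libraries, 7.04 and 7.73 with ferrostatin-1 and 6.16 and 6.63 with liproxstatin-1. With TNF, SNHG30 was at 17.7 and 15.1 CPM for TNF alone, 19.9, 20.9 and 18.4 with TNF + ferrostatin-1 and 15.3 and 13.4 with TNF + liproxstatin-1. Every library with TNF was above every library without it. SNHG30 rose by 1.92-fold with TNF alone (log2 fold change 0.94, SE 0.14, adjusted p = 0.000837). It rose by 2.67-fold beside ferrostatin-1 (log2 fold change 1.42, SE 0.14, adjusted p = 6.5e-05) and by 2.25-fold beside liproxstatin-1 (log2 fold change 1.17, SE 0.15, adjusted p = 0.00062).

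SNHG4, the host of SNORA74A, lies wholly inside 1 of the 2 deposited rows named MATR3 on the same strand, so its counts cannot be cleanly told apart from that gene. SNHG4 was at 51.5, 67.1 and 48.3 CPM in the control libraries, 46.7 and 37.7 with ferrostatin-1 and 37.3 and 38.4 with liproxstatin-1. With TNF, SNHG4 was at 46.1 and 51.4 CPM for TNF alone, 69.6, 73.0 and 76.3 with TNF + ferrostatin-1 and 63.9 and 63.8 with TNF + liproxstatin-1. The TNF libraries with an inhibitor held the highest levels except for control library 2, and the libraries with TNF alone overlapped control libraries 1 and 3. SNHG4 rose by 1.73-fold beside ferrostatin-1 (log2 fold change 0.79, SE 0.14, adjusted p = 0.00263) and by 1.69-fold beside liproxstatin-1 (log2 fold change 0.75, SE 0.15, adjusted p = 0.00715). Its difference with TNF alone was -0.19 (SE 0.14, adjusted p = 0.395). That MATR3 row was at 41.1, 53.0 and 75.2 CPM in the control libraries, 222 and 83.7 with ferrostatin-1 and 116 and 189 with liproxstatin-1. With TNF, that row was at 0.331 and 131 CPM for TNF alone, 89.0, 56.1 and 47.8 with TNF + ferrostatin-1 and 60.9 and 21.4 with TNF + liproxstatin-1. It varied within groups and between them without following SNHG4, and it was not called in any of the 9 pairwise comparisons. The other row named MATR3 was called lower with TNF alone, at a log2 fold change of -1.46 (adjusted p = 0.0258). It was called higher for TNF + ferrostatin-1 against TNF, at 1.53 (adjusted p = 0.043), where SNHG4 was called higher too. The part of either MATR3 row in the counts of SNHG4 was not tested. SNHG28 was counted 1 to 60 times per library (0.0149 to 0.944 CPM) and was called higher beside ferrostatin-1 alone, at a log2 fold change of 3.79 (SE 0.89, adjusted p = 0.0116), with a 95% interval of 1.85 to 5.73. A row named AL590560 on the same strand covers its whole span.

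**Figure D4:**
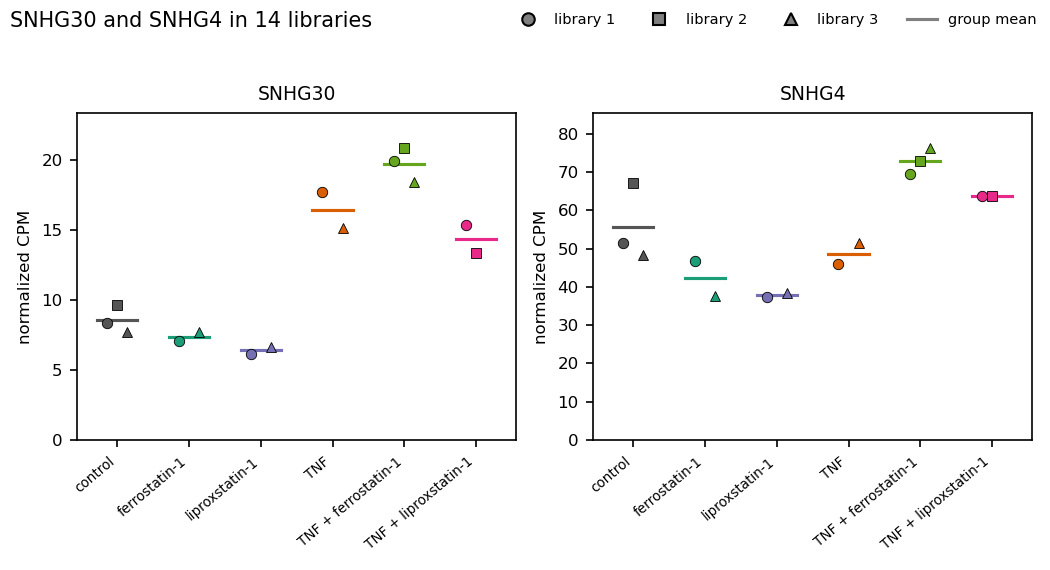
Normalized CPM (y axes, from 0) of SNHG30 and SNHG4 in each library, by group (x axes), with library numbers as marker shapes and group means as bars. SNHG30 lies between 13.4 and 20.9 CPM in the libraries with TNF and between 6.16 and 9.66 CPM in those without, while SNHG4 is above 63 CPM where TNF and an inhibitor were combined and, without TNF, in control library 2 alone.

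NEAT1, the scaffold of paraspeckles, at chr11:65422774-65445540, plus strand, was at 521, 418 and 711 CPM in the control libraries, 535 and 609 with ferrostatin-1 and 644 and 669 with liproxstatin-1. With TNF, NEAT1 was at 225 and 355 CPM for TNF alone, 262, 289 and 294 with TNF + ferrostatin-1 and 376 and 376 with TNF + liproxstatin-1. The 7 libraries with TNF were below the 7 without, and the 3 controls spread widely. NEAT1 fell by 1.9-fold with TNF alone (log2 fold change -0.92, SE 0.21, adjusted p = 0.0141), a call lost without TNF library 1. It fell by 2.03-fold beside ferrostatin-1 (log2 fold change -1.02, SE 0.20, adjusted p = 0.00465) and by 1.74-fold beside liproxstatin-1 (log2 fold change -0.80, SE 0.23, adjusted p = 0.0348), where the call was kept in 15 of 21 alternatives. The short and the long form of NEAT1 share 1 row, so which form fell is not resolved.

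MALAT1, at chr11:65497688-65506469, plus strand, was at 219.8, 209 and 223 CPM in the control libraries, 219.7 and 204 with ferrostatin-1 and 218 and 228 with liproxstatin-1. With TNF, MALAT1 was at 50.4 and 208 CPM for TNF alone, 328, 405 and 367 with TNF + ferrostatin-1 and 339 and 349 with TNF + liproxstatin-1. Its 7 libraries without TNF lay within 204 to 228 CPM, TNF library 3 lay at the lower end of that range, TNF library 1 far below it, and the 5 libraries with TNF and an inhibitor above it. In the analysis of all libraries MALAT1 was not called beside ferrostatin-1 (log2 fold change 0.79, SE 0.39, adjusted p = 0.199) or liproxstatin-1 (log2 fold change 0.62, SE 0.42, adjusted p = 0.381), nor with TNF alone (log2 fold change -0.75, SE 0.39, adjusted p = 0.22). These fits share 1 estimate of spread, which takes in the gap between the TNF libraries. Leaving out either TNF library removes that gap, so the smaller SEs below follow from that choice and are not independent support. Without TNF library 1, MALAT1 was called higher beside ferrostatin-1, at 0.79 (SE 0.09, adjusted p = 4.27e-05), and beside liproxstatin-1, at 0.62 (SE 0.09, adjusted p = 0.000534), while its difference with TNF alone was -0.06 (SE 0.11, adjusted p = 0.833). Without TNF library 3 the first values were 0.79 (SE 0.09, adjusted p = 4.3e-05) and 0.62 (SE 0.09, adjusted p = 0.000539), and that with TNF alone became -2.11 (SE 0.12, adjusted p = 5.4e-08). The groups compared within each inhibitor do not hold the TNF libraries.

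NORAD, at chr20:36045618-36051018, minus strand, had the smallest spread of the 3. It was at 681, 739.7 and 688 CPM in the control libraries, 687 and 692 with ferrostatin-1 and 725 and 728 with liproxstatin-1. With TNF, NORAD was at 424 and 756 CPM for TNF alone, 753, 778 and 746 with TNF + ferrostatin-1 and 732 and 713 with TNF + liproxstatin-1. TNF library 1 was the only library under 681 CPM. The intervals of its log2 fold change were -0.62 to 0.12 with TNF alone, -0.23 to 0.51 beside ferrostatin-1 and -0.41 to 0.40 beside liproxstatin-1, and none of the 3 was called. Without TNF library 1 the first value was 0.11 (SE 0.08, adjusted p = 0.486), and without TNF library 3 it was -0.73 (SE 0.08, adjusted p = 1.41e-05), a call that rests on 1 library.

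**Figure D5:**
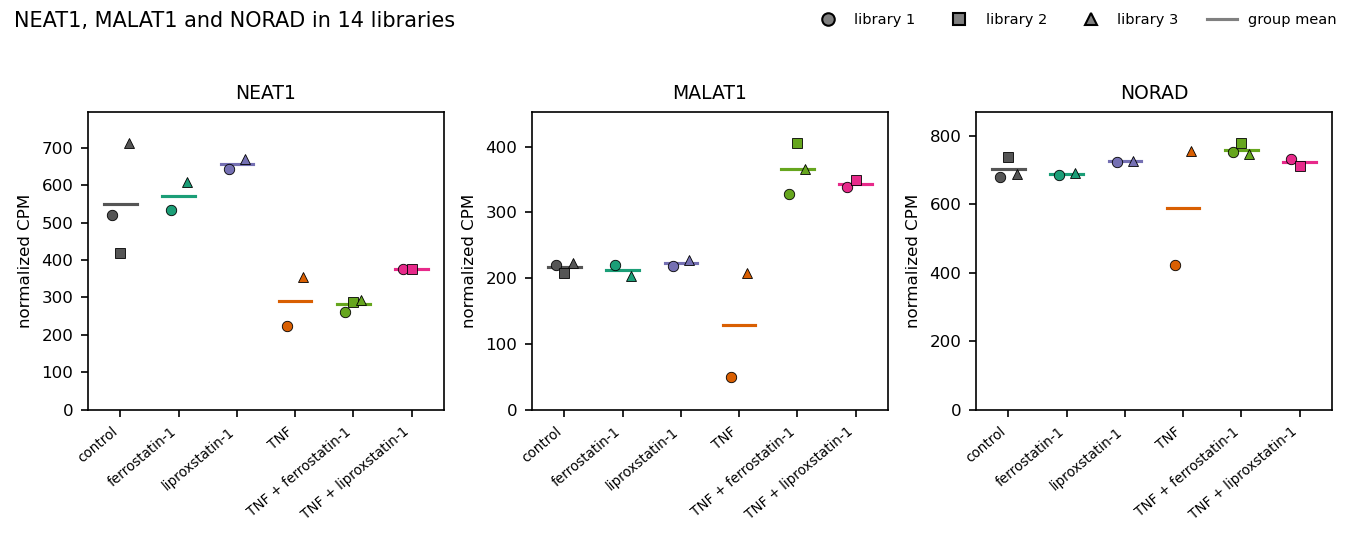
Normalized CPM (y axes, from 0) of NEAT1, MALAT1 and NORAD in each library, by group (x axes), with library numbers as marker shapes and group means as bars. TNF library 1, the lower circle, is the lowest of all libraries for each gene, and MALAT1 is above 320 CPM only where TNF and an inhibitor were combined.

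The other members were not called by edgeR in any pairwise comparison or interaction with all libraries in the fit. Among those with at least 50 counts on average, SNHG3 had the smallest ratio between its highest and lowest group mean (1.135) and ran from 51.1 to 62.2 CPM. RCC1 covers the whole span of SNHG3 on the same strand, at a median of 182.5 CPM against 57.4 CPM. SNHG3 counts can therefore not be cleanly told apart from those of RCC1, which was not called in any of the 9 pairwise comparisons. SNHG6, the host of SNORD87, ran from 20.2 to 33.8 CPM, SNHG11 from 9.91 to 18.1 CPM, SNHG20 from 11.7 to 17.3 CPM, SNHG5 from 8.64 to 14.6 CPM, SNHG10 from 3.56 to 6.91 CPM, SNHG21 from 0.966 to 3.09 CPM and SNHG19 from 0.844 to 2.28 CPM. SNHG20 was higher with TNF in every pair of groups without overlap, with log2 values of 0.33 (SE 0.12, adjusted p = 0.0942), 0.33 (SE 0.13, adjusted p = 0.0902) and 0.18 (SE 0.14, adjusted p = 0.455), none past the threshold. SEC14L1 on the same strand overlaps 11154 of the 13187 bases of SNHG20, at a median of 83.2 CPM against 13.4 CPM. The counts of SNHG20 therefore cannot be cleanly told apart from that gene. DESeq2 called SNHG20 higher with TNF alone (adjusted p = 0.0468) and beside ferrostatin-1 (adjusted p = 0.0423), and calls for SNHG10, SNHG11 and SNHG19 appeared by limma voom or without 1 library. SNHG9, SNHG14, SNHG22, SNHG25 and SNHG26 stayed under 0.63 CPM, with 0 to 45 counts per library, and their intervals were wide: for SNHG22 with TNF alone -2.31 to 0.23 and for SNHG26 -3.37 to 2.31.

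Without TNF, neither inhibitor gave a called member. Ferrostatin-1 against control had 0 called by edgeR, where 0.564% of all genes were, 5 with an unadjusted p under 0.05, 0 by DESeq2 and 1 (SNHG17) by limma voom. Liproxstatin-1 against control had 0, where 0.0586% of all genes were called, 2 with an unadjusted p under 0.05, and 1 (SNHG4, lower) by each of DESeq2 and limma voom. The members nearest to a call were SNHG4 with each inhibitor, -0.40 (SE 0.14, adjusted p = 0.259) for ferrostatin-1 and -0.56 (SE 0.14, adjusted p = 0.185) for liproxstatin-1, and ZFAS1 with ferrostatin-1, 0.61 (SE 0.22, adjusted p = 0.278). Liproxstatin-1 against ferrostatin-1 also gave 0, where 0.104% of all genes were called, 1 with an unadjusted p under 0.05, and 0 by DESeq2 and limma voom. That pair was compared for 32 members, and the interval of the difference was -0.65 to 0.20 for GAS5, -0.29 to 0.69 for NEAT1 and -0.53 to -0.01 for DANCR, on the log2 scale.

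With TNF present, adding ferrostatin-1 gave 1 called member, SNHG4, which was higher, where 1.77% of all genes were higher. SNHG4 differed by a log2 fold change of 0.58 (SE 0.14, adjusted p = 0.0403), a call kept in 7 of 22 alternatives. MALAT1 was 2.83-fold higher and just missed the threshold (adjusted p = 0.0505). Adding liproxstatin-1 gave 0, where 0.343% of all genes were called, 8 with an unadjusted p under 0.05, 3 by DESeq2 (SNHG29 and SNHG7 lower, MALAT1 higher) and 1 by limma voom (MALAT1). These comparisons rest on the 2 TNF libraries: without TNF library 3 they gave 8 (25%) and 11 (34.4%) called members, near the 31.2% and 28.7% of all genes called there. Without TNF library 1 they gave 1 each, where 2.49% and 1.51% of all genes were called. That 1 was MALAT1, at 0.81 with ferrostatin-1 and 0.72 with liproxstatin-1. These values rest on 1 TNF library, and the gap of MALAT1 between the TNF libraries is removed from them. TNF + liproxstatin-1 against TNF + ferrostatin-1 gave 0, where 0.766% of all genes were called, 3 with an unadjusted p under 0.05, and 1 (SNHG30, lower) by each of DESeq2 and limma voom. The interval of that difference was -0.03 to 0.87 for NEAT1, -0.92 to 0.74 for MALAT1, -0.69 to 0.10 for GAS5 and -0.76 to -0.15 for SNHG30.

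Whether the TNF effect itself differed between backgrounds was tested by interaction terms. With ferrostatin-1, 0 members were called (0.00451% of all genes were), 7 had an unadjusted p under 0.05, and DESeq2 called 2, MALAT1 and SNHG4, while limma voom called 0. With liproxstatin-1, 0 were called (0% of all genes), 8 had an unadjusted p under 0.05, DESeq2 called 2 (SNHG29 and SNHG4) and limma voom 1 (MALAT1). Between the inhibitors 0 were called (0% of all genes), 1 had an unadjusted p under 0.05, and DESeq2 and limma voom called 0. SNHG4 was nearest to a call in both of the first tests, at 0.98 (SE 0.20, adjusted p = 0.0832) and 0.95 (SE 0.21, adjusted p = 0.121). Without TNF library 1 and control library 2, the interaction values of SNHG4 were 0.78 and 0.73, and those of MALAT1 0.91 and 0.73. These values rest on 1 TNF library. TNF library 1 was set apart in part by its low MALAT1, so they are not independent support for MALAT1. By edgeR, no host called lower beside an inhibitor had a called interaction in the analysis of all libraries or without that pair, whereas DESeq2 called SNHG29 with liproxstatin-1 as given above. Without TNF library 3 such calls were made by edgeR for SNHG29, SNHG32 and SNHG7 among others, with 8 and 9 members called (25% and 28.1%) where 26% of all genes were in each interaction.

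Genes that work with these RNAs were read from lists, whose counts stand beside the shares of all genes called lower and higher: 6.44% and 8.24% with TNF alone, 9.36% and 8.76% beside ferrostatin-1, and 7.03% and 7.57% beside liproxstatin-1. Several lists have counts of 0 to 2 in a direction, at or near these shares. Of 21 translation factors and related genes with oligopyrimidine starts, 11 were lower and 0 higher in each of the 3 TNF comparisons, with medians of -0.44, -0.32 and -0.38 on the log2 scale. EEF1A1, the elongation factor that brings tRNAs to the ribosome, had log2 fold changes of -0.81 (adjusted p = 0.000151) with TNF alone, -0.74 (adjusted p = 0.000192) beside ferrostatin-1 and -0.72 (adjusted p = 0.000762) beside liproxstatin-1. Of 22 protein-coding snoRNA hosts that encode no ribosomal protein, a list that shares members with the previous one, 10 were lower with TNF alone (median -0.51), 6 lower and 1 higher beside ferrostatin-1 (median -0.29), and 7 lower and 1 higher beside liproxstatin-1 (median -0.37). Among these EEF2, an elongation factor that hosts a snoRNA, had log2 fold changes of -0.58 (adjusted p = 0.00136), -0.86 (adjusted p = 5.84e-05) and -0.90 (adjusted p = 0.00018). Of the 8 snoRNP core proteins, which form the particles around snoRNAs, 3 were lower with TNF alone (NOP58, DKC1 and NOP56), 0 beside ferrostatin-1 and 2 beside liproxstatin-1 (FBL and NOP56). NOP58, a box C/D core protein, had a log2 fold change of -1.29 (adjusted p = 0.0137) with TNF alone and DKC1, the pseudouridine synthase of box H/ACA particles, -0.66 (adjusted p = 0.0118). NOP58 averaged 42.0 CPM with TNF alone, 102.8 CPM in control and 96.4 CPM with TNF + ferrostatin-1. Whether the values of listed genes with TNF alone rest on TNF library 1 was not tested. Of 13 snoRNP assembly and processing factors, 2 were lower with TNF alone, 2 higher beside ferrostatin-1, and 1 higher and 1 lower beside liproxstatin-1.

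Of 17 nonsense-mediated decay factors, 4 were lower and 1 higher with TNF alone, 3 lower beside ferrostatin-1 and 4 lower beside liproxstatin-1. On the log2 scale UPF3B was at -1.44 (adjusted p = 0.00224) with TNF alone and DHX34 at -0.79 (adjusted p = 0.00201) and -0.63 (adjusted p = 0.0168) beside the inhibitors. Of 19 rows of paraspeckle proteins, 3 were lower with TNF alone, 2 higher and 1 lower beside ferrostatin-1, and 1 higher and 1 lower beside liproxstatin-1, with CPSF6 higher and DAZAP1 lower in both of the latter. Of 14 nuclear speckle proteins, 2 were lower with TNF alone (SON and PPIG), 3 higher beside ferrostatin-1 and 1 higher and 1 lower beside liproxstatin-1, where SRSF5, a splicing factor, was higher by log2 0.61 (adjusted p = 0.00237) and 0.62 (adjusted p = 0.00438). Of 4 NORAD-binding proteins, RBMX alone was called, at 0.54 (adjusted p = 0.0311) beside liproxstatin-1. Of 11 tested regulators linked to MYC and mTOR, 1 was higher with TNF alone (MAX), 2 lower beside ferrostatin-1 and 3 lower beside liproxstatin-1. EIF4EBP1, a repressor of cap-dependent translation, had log2 fold changes of -1.30 (adjusted p = 0.00373) and -1.63 (adjusted p = 0.00307).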

How the data were processed

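HT-29 poly(A) RNA went into dUTP (strand-marking) libraries that an Illumina NovaSeq read from both ends, per the labels' protocols. The authors deposited whole-number counts per gene, with FPKM values beside them. FPKM was read in the 3 control columns alone, to rank members per length, and 11 FPKM columns were not used. Tools named in the submitters' processing notes, with no role, are StringTie 1.3.4d, HISAT2 2.0.4, cutadapt 1.9, DESeq2 and edgeR. No source used here gives the genome build, annotation, counting program or strand setting, so overlapping and antisense genes are uncertain. Positions are as deposited: all 34 member IDs are in GENCODE v29 (GRCh38), 12 with the same start and end. For TNF and for either inhibitor alone, count columns carry numbers 1 and 3 where titles carry 1 and 2. These were matched by group, and library numbers are those of the columns.

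Counts were TMM-scaled in edgeR 4.0.16 (R 4.3.3), filtered with filterByExpr, and tested with its quasi-likelihood test in 1 model of 14 libraries. There were 9 pairwise comparisons, 3 interactions and 1 test over the 6 groups, with Benjamini-Hochberg adjustment over 22179 genes at 0.05. SE is the size of the log2 fold change divided by the square root of F, with 95% t intervals. DESeq2 1.42.0 and limma 3.58.1 (voom), other scalings and filters, and leaving out each library were alternatives. The code was tested on simulated data. Values in every library are given for 8 RNAs fixed by name, and for members that were called in a pairwise comparison and averaged 50 counts or more. Per list, the 3 called genes of smallest p-value could be named. The values of 1 gene of these lists are not reported here. Members and lists were chosen with earlier results of these data known. Precision is limited by the 2 or 3 libraries per group, and chi-square tests found no pair of libraries of a group alike within counting noise.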

Additional observations from a re-analysis of the deposited data

How the results depend on the processing

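No member's called difference changed direction under any alternative run, and changing the scaling to relative log expression or the filter to CPM of at least 1 in 3 libraries left every count of called members within 1.5 times its value, except that the filter gave 2 for TNF + ferrostatin-1 against TNF in place of 1. With TNF alone, 6 members were called; limma voom gave 1, the fit of only the groups compared 0, the pair of libraries left out together 15, and leaving out 1 library 4 to 10. Beside ferrostatin-1 the 15 calls ranged from 8 to 19, and beside liproxstatin-1 the 16 from 6 to 17, when 1 library was left out (8 without ferrostatin-1 library 1; 6 without liproxstatin-1 library 3 or TNF + liproxstatin-1 library 2 and 10 without the other library of either group). The 17 calls over the 6 groups ranged from 13 to 20 when 1 library was left out, and limma voom gave 22. For ferrostatin-1 against control, limma voom gave 1; for liproxstatin-1 against control, DESeq2 and limma voom gave 1 each. For TNF + ferrostatin-1 against TNF, the 1 call was 0 with no filter, by limma voom and with only the groups compared, 2 by DESeq2 and without the pair of libraries, and 0 to 8 leaving out 1 library. For TNF + liproxstatin-1 against TNF, DESeq2 gave 3, limma voom 1, the pair left out 1, and leaving out 1 library 0 to 11. For TNF + liproxstatin-1 against TNF + ferrostatin-1, DESeq2, limma voom and the fit of only the groups compared gave 1 each. For the interaction with ferrostatin-1, DESeq2 and the pair left out gave 2 each, and leaving out 1 library 0 to 8; with liproxstatin-1, DESeq2 and the pair left out gave 2 each, limma voom 1, and leaving out 1 library 0 to 9. The highest of these ranges for comparisons with the TNF group came without TNF library 3, and for TNF against control without control library 2. Over all genes, calls ranged over the alternatives from 397 to 7380 for TNF alone (3255 in the main analysis), 1877 to 7240 beside ferrostatin-1 (4019), 1328 to 6848 beside liproxstatin-1 (3240), 13 to 1604 for ferrostatin-1 (125), 1 to 1463 for liproxstatin-1 (13), 3 to 302 between the inhibitors (23), 11 to 7373 and 0 to 6797 for adding ferrostatin-1 or liproxstatin-1 to TNF (1224 and 76), 26 to 813 between those (170), 0 to 6147 for either interaction (1 and 0), 0 to 19 for the difference of the TNF effect between inhibitors (0) and 4047 to 11066 over the 6 groups (5785). The cause of these shifts was not tested beyond the libraries named.

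Libraries with the same number showed no clear shared deviation from their group means (correlations -0.169 to 0.178 over 28 pairs, 1 above 0.1). In groups of 2 libraries the deviations mirror each other, so some pairs repeat a value. The check therefore cannot settle whether the number pairs libraries. With a replicate block the calls were 4 for TNF alone, 12 beside ferrostatin-1, 8 beside liproxstatin-1, 0 for TNF + ferrostatin-1 against TNF and 12 over the 6 groups; the other comparisons kept 0.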
